A study of Mus musculus with 15 samples.

Results

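The genes described here encode the subunits of the mitochondrial respiratory chain and of ATP synthase, together with the assembly factors and the isoforms that share their names. They were found in the platform annotation as genes whose symbol begins with Nduf (complex I), is Sdha to Sdhd (complex II), begins with Uqcr (complex III), begins with Cox4 to Cox8 (complex IV) or begins with Atp5 (complex V, ATP synthase). Of 18193 genes with a probe set of their own, 90 met this rule: 42 in complex I, 4 in complex II, 8 in complex III, 19 in complex IV and 17 in complex V. Where a gene had several probe sets, the one with the largest SD over all arrays stood for it. Ndufa4 and Ndufa4l2 were counted with complex IV, where the Ndufa4 protein is found.

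RNA came from primary hepatocytes of male C57BL/6 mice and was measured on 15 Affymetrix arrays, 3 for each of 5 groups, per the design text from independent biological replicates. Fresh cells (t0) were taken at isolation. The 4 other groups had been in culture, for 4 h or for 24 h. One pair came from a tissue culture dish (TCD), on which hepatocytes spread into a monolayer. The other pair came from a rotating wall vessel (RWV), a slowly turning chamber in which the cells join into 3D aggregates. No genetic change or drug was part of any group, and all groups were isolated cells, so the intact liver is not among the comparisons.

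The respiratory chain passes electrons from NADH (complex I) and succinate (complex II) through coenzyme Q, complex III and cytochrome c to oxygen at complex IV, and complexes I, III and IV pump protons across the inner mitochondrial membrane as they do so. ATP synthase lets the protons back and makes ATP. Hepatocytes are rich in mitochondria and draw on this ATP for gluconeogenesis and urea synthesis, and nearly all of the subunits, all those of complex II among them, are encoded in the nucleus.

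The deposited values are log2 signals from which the median of the fresh arrays had been subtracted for each probe set, so each value is a change from fresh cells and 0 is the fresh median. The signal level itself is not in them. A difference is therefore given between groups of 3 arrays, with its standard error (SE) from limma, and a gene was called, that is said to have risen or fallen, at a Benjamini-Hochberg adjusted p below 0.05 over the 12157 genes tested. Of the 90 genes 86 were tested. The probe sets naming only Ndufb4, Cox4i2, Cox7b2 or Cox8c followed the array background and were left out. A pair of probe sets that Ndufb4 shares with Ndufb4b and Ndufb4c was off the background and read -0.64 to -0.47 in the dish and -0.65 to -0.47 in the vessel at 24 h, but these cannot be assigned to 1 gene. In RNA of a whole culture, fewer hepatocytes and less of a transcript per hepatocyte cannot be told apart.

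One array stood apart: replicate 2 of the TCD group at 4 h had a median of 1.08 over the hybridisation controls, against -0.73 to 0.18 on the other arrays, and the lowest array weight (0.168). At 24 h the 7 hepatocyte markers had array medians from -1.98 to -1.45 in the dish and from -0.82 to -0.68 in the vessel, and 6 of the 7 had fallen in each, albumin (Alb) being the one not called. The 3 bile duct markers tested (Krt19, Epcam and Sox9) had all risen in the dish, with array medians from 2.75 to 5.37, against 0.04 to 0.07 in the vessel, where Sox9 alone had risen. Of 8 Kupffer cell markers 3 had risen in the vessel (C1qa, C1qb and Marco) and 0 by limma in the dish (1 at an unadjusted p below 0.05), and their array medians in the vessel were 2.42, -0.19 and 1.12 in replicates 1 to 3. The part of these shifts in the results below was not tested.

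Several members carry, near their start site, the letters bound by factors known for control of respiratory genes. RefSeq promoters (GRCm38.p6, 250 bases before to 50 after each start) were found for 74 of the 90 genes. Of the 74, 5 had several promoters, and a gene was counted if any of its promoters held the letters. The core of the NRF1 site, CGCATGCG, stood on either strand in 13.5% of these 74 genes and in 2.07% of the 27025 genes of the table, the ETS letters CCGGAAG in 25.7% and 9.93%, the YY1 letters AAGATGGCG in 9.46% and 1.64%, and the ERR letters TCAAGGTCA in 2.70% and 0.466%. Some matches lie after the start, among them all but 1 of the YY1 matches. None of these 4 motifs overlapped another in the stretches shown. The 250 bases before the start of 3 genes on which the vessel and complex II results turn are given 5′ to 3′ with the matches in capitals: Atp5j (chr16:84834977-84835226, minus strand), Sdhd (chr9:50603850-50604099, minus strand) and Sdha (chr13:74350241-74350490, minus strand).
Atp5j: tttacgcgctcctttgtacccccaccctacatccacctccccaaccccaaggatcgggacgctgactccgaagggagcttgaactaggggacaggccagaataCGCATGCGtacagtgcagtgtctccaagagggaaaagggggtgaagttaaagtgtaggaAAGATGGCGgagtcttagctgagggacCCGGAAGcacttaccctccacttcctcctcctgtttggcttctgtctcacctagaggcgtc
Sdhd: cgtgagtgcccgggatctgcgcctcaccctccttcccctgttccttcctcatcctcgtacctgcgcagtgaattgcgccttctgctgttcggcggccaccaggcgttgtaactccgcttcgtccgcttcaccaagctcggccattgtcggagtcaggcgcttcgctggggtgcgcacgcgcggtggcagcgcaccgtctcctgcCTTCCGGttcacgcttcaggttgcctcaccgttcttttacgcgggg
Sdha: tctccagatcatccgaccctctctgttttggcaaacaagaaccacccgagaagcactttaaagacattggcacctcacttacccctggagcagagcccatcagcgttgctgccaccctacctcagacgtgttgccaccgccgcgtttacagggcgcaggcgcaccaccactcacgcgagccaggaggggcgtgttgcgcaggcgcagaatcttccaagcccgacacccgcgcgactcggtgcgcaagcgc
The Atp5j stretch holds the NRF1 core, the YY1 letters and the ETS letters in that order, that of Sdhd holds the ETS letters on the other strand (its ERR match, at position 36 after the start, lies outside the stretch printed), and that of Sdha holds none of the 4 motifs. At 24 h the 30 tested genes with a motif had a median difference from fresh of -0.71 in the dish and -0.52 in the vessel, and the 42 without one -0.63 and -0.51.

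After 24 h in culture most of the respiratory genes had fallen in both vessels. In the dish 68 of 86 were lower than in fresh cells and 3 higher, with a median difference of -0.66, while over all genes tested 23.8% were lower and 33.6% higher, around a median of 0.01 (57.4% in either direction). In the rotating vessel 66 were lower and 4 higher, with a median of -0.51, where all genes tested gave 19.6% lower and 31.5% higher around a median of 0.04 (51.1% in either direction). The 2 comparisons share the fresh arrays. Of the 86 genes, 64 had fallen in both vessels, 4 in the dish alone by this threshold and 2 in the rotating vessel alone, and 11 were called in neither. Falls of 2-fold or more numbered 15 in the dish and 8 in the vessel. These counts were not set beside the share of all genes, so they do not mark the members out. Every array of the 24 h groups had a median over these 86 genes below every fresh and 4 h array, from -0.69 to -0.62 in the dish and from -0.56 to -0.43 in the vessel, as the plot of medians by complex also shows for each complex. Array groups did not overlap for 78 genes in the dish comparison and 78 in the vessel comparison, where 76.2% and 71.5% of all genes tested did not.

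**Figure D1:**
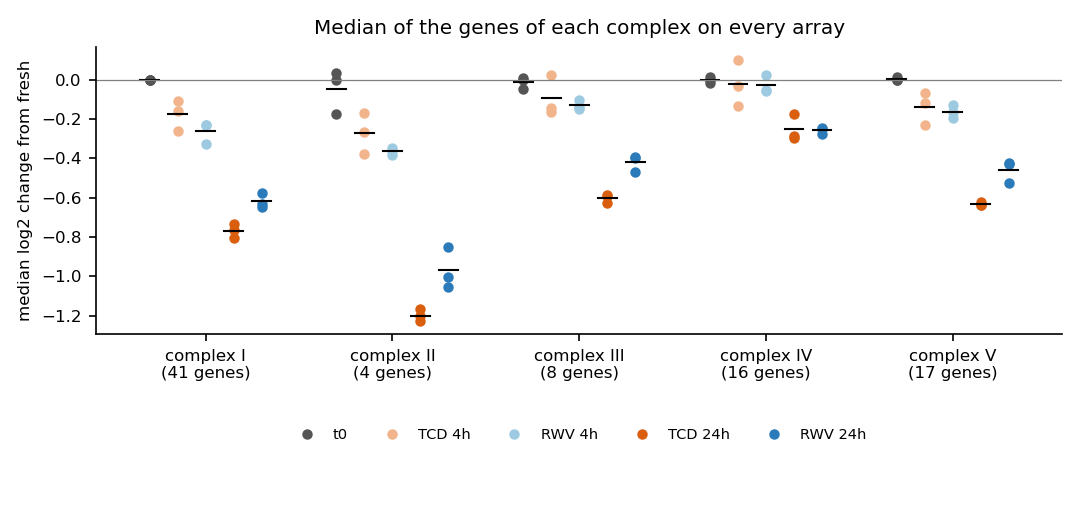
Median log2 change from fresh cells over the tested genes of each complex, 1 point per array and a black bar for the mean of 3 arrays, by group. Complex II lay lowest at 24 h (array medians from -1.23 to -1.17 in the dish) and complex IV, tissue-specific isoforms included, highest (from -0.29 to -0.17).

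The fall differed in size between complexes. The median difference from fresh at 24 h was -1.18 in the dish and -0.90 in the vessel for complex II, -0.76 and -0.62 for complex I, -0.65 and -0.48 for complex V, -0.59 and -0.45 for complex III, and -0.34 and -0.35 for complex IV. All 4 genes of complex II had fallen in both vessels, and of complex III all 8 in the dish and 7 in the vessel. Some of the complex III calls ended under other settings, as given below. Complex V had 15 of 17 lower in each, complex I 34 and 32 of 41, and complex IV 7 and 8 of 16. Complex IV was also the one with the most genes higher than in fresh cells, 3 in each vessel. Its 16 genes include 5 tissue-specific isoforms, which gave 2 of the 3 higher genes in the dish and 1 in the vessel. The 11 other genes had array medians at 24 h from -0.44 to -0.36 in the dish and from -0.36 to -0.30 in the vessel. These are counts and medians of the members, with no test between complexes.

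**Figure D2:**
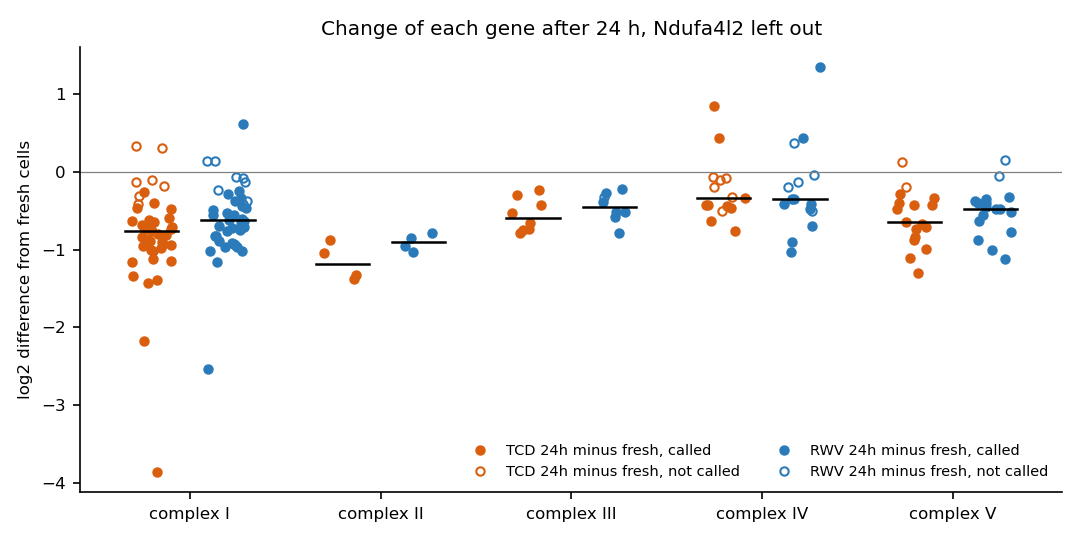
Log2 difference from fresh cells after 24 h for each tested gene, by complex, in the dish (orange) and the rotating vessel (blue). Filled points were called, open points were not, black bars are medians, and Ndufa4l2 (9.40 and 5.26) is left out to keep the scale.

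Complex II, succinate dehydrogenase, is the enzyme that the chain shares with the citric acid cycle. Sdha, its flavoprotein subunit, read 0.04, 0.00 and -0.05 on the fresh arrays, -1.30, -1.55 and -1.29 in the dish at 24 h and -1.08, -0.62 and -0.68 in the vessel. The 3 groups did not overlap, and the dish was lowest. Sdha fell by 1.38 (SE 0.12, adjusted p 1.17e-06) in the dish and by 0.79 (SE 0.12, adjusted p 0.000173) in the vessel. Sdhb, the iron-sulphur subunit, fell by about as much in each, by 0.87 (SE 0.09) in the dish and by 0.96 (SE 0.09) in the vessel. The membrane anchors Sdhc and Sdhd fell by 1.32 (SE 0.12) and 1.05 (SE 0.11) in the dish, and by 1.03 (SE 0.12) and 0.85 (SE 0.11) in the vessel. Another probe set of Sdha, 1433293_at, did not show the fall, with a difference of -0.06 (SE 0.09) in the dish.

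In complex I all 6 core subunits fell in both vessels, with a median of -1.14 in the dish and -0.93 in the vessel. These carry the flavin and the iron-sulphur clusters of the matrix arm. Ndufs1, with several of the clusters, read 0.00, 0.10 and -0.07 on the fresh arrays, -1.20, -1.46 and -1.48 in the dish at 24 h and -1.14, -0.75 and -0.99 in the vessel. Every cultured value at 24 h lay below every fresh value, and the dish and vessel did not overlap. Ndufs1 fell by 1.39 (SE 0.12, adjusted p 6.06e-07) in the dish and by 0.97 (SE 0.12, adjusted p 2.04e-05) in the vessel. Ndufv2, of the NADH-binding module, fell by 1.34 (SE 0.10) and 0.94 (SE 0.10). Ndufs8 and Ndufs3 were nearly alike in both vessels: Ndufs8 fell by 1.12 (SE 0.10) in the dish and 1.02 (SE 0.10) in the vessel, and Ndufs3 by 0.93 (SE 0.10) and 0.92 (SE 0.10).

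Of the 27 accessory subunits of complex I that were tested, which surround the core and do no electron transfer themselves, 23 fell in the dish and 21 in the vessel, and 0 rose in either. Ndufb3, of the membrane arm, fell by 1.15 (SE 0.10) in the dish and by 0.90 (SE 0.10) in the vessel. The difference of Ndufa1 was -0.11 (SE 0.08, adjusted p 0.311) in the dish and -0.08 (SE 0.08, adjusted p 0.467) in the vessel. Ndufs4, an accessory subunit needed for a stable complex I, showed the largest fall of any member, by 3.86 (SE 0.30) in the dish and by 2.54 (SE 0.30) in the vessel, but only on the probe set that stood for it, 1418117_at. With every probe set tested on its own, 1438166_x_at gave -0.56 (SE 0.12) and 1448959_at -0.50 (SE 0.09) in the dish, and 1459760_at went the other way, at 0.78 (SE 0.18, adjusted p 0.0025). Ndufab1, the mitochondrial acyl carrier protein, fell by 1.02 (SE 0.25) in the dish on 1428160_at, and in the vessel its 5 probe sets ranged from -0.82 (SE 0.24) on that one to 0.65 (SE 0.22) on 1435934_at.

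**Figure D3:**
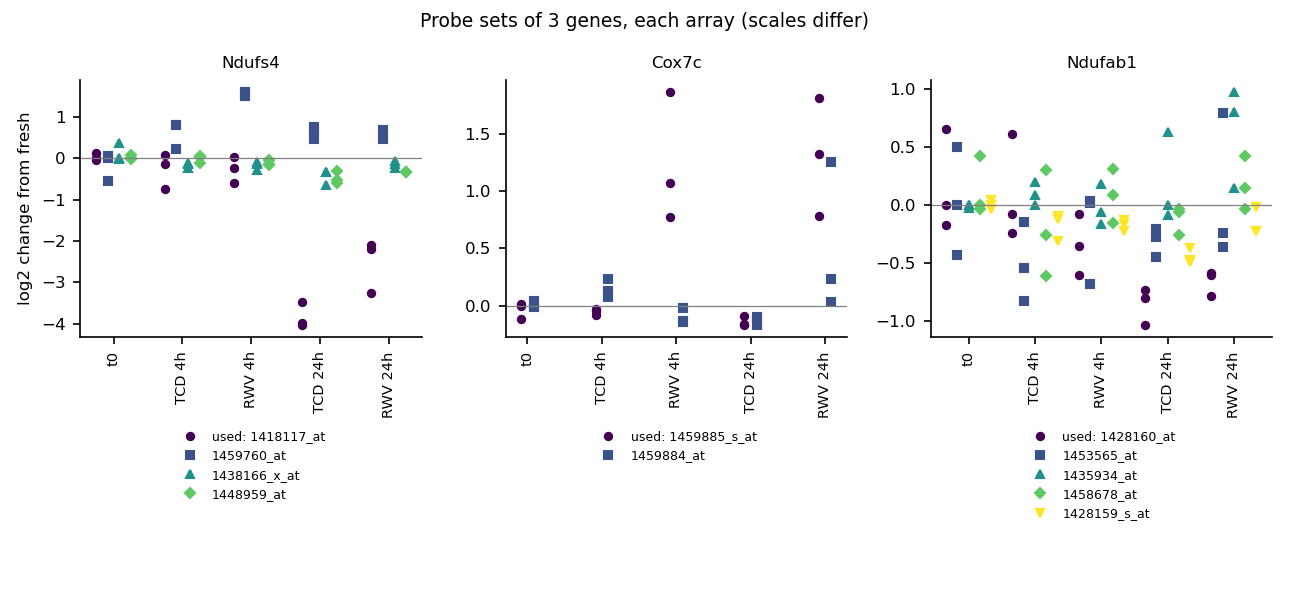
Log2 change from fresh cells on each array for every probe set of Ndufs4, Cox7c and Ndufab1 that was off the background, with groups along the x axis and 3 points per group and probe set. The probe set that stood for the gene (circles) is the lowest of 4 for Ndufs4 at 24 h, and for Cox7c it has the higher mean of the pair in both RWV groups, with points that overlap at 24 h.

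Probe sets otherwise mostly ran together. Of 46 members with several, 27 had all of them lower in the dish at 24 h, 1 had all of them higher and 1 had probe sets called in both directions. In the vessel the numbers were 25, 1 and 2. For Ndufb8, Ndufc2 and Atp5j2 the probe set with the largest SD was not called while others of the gene were lower: Ndufb8 was at -0.41 (SE 0.27) on 1458404_at and fell by 0.81 (SE 0.09) on 1448198_a_at in the dish.

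The 8 assembly factors among the complex I genes, which help to build the complex but are not part of it, were less uniform. In the dish 5 fell and 0 rose, and in the vessel 5 fell and 1 rose. Ndufaf3 read 0.00, 0.03 and -0.19 on the fresh arrays, -2.03, -1.88 and -2.79 in the dish at 24 h and -1.03, -0.95 and -1.23 in the vessel, so the 3 groups were apart. It fell by 2.18 (SE 0.21, adjusted p 2.31e-06) in the dish and by 1.02 (SE 0.21, adjusted p 0.00155) in the vessel. Ndufaf6 fell by 1.44 (SE 0.14) and 0.64 (SE 0.14). Ndufaf5 rose in the vessel by 0.61 (SE 0.16, adjusted p 0.00615), though with arrays centred on reference genes its difference was -0.14. In the dish it was at 0.33 (SE 0.16, adjusted p 0.0954).

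In complex III the 3 core subunits tested fell in both vessels: Uqcrc2 by 0.75 (SE 0.09) in the dish and 0.52 (SE 0.09) in the vessel, the Rieske protein Uqcrfs1 by 0.66 (SE 0.09) and 0.59 (SE 0.09), and Uqcrc1 by 0.53 (SE 0.10) and 0.27 (SE 0.10). The call of Uqcrc1 in the vessel (adjusted p 0.0393) ended when any of fresh replicates 2 and 3, RWV replicate 3 at 4 h, TCD replicate 1 at 24 h or RWV replicates 1 and 2 at 24 h was left out, and under 2 other settings, with adjusted p up to 0.139. Of the small subunits Uqcr11 fell the most, by 0.79 (SE 0.10) and 0.78 (SE 0.10). Uqcr10 fell in the dish by 0.43 (SE 0.13), a call that ended without TCD replicate 3 at 24 h (adjusted p 0.0616) or without probe sets of shared sequence (-0.12, adjusted p 0.456), and in the vessel it was at -0.33 (SE 0.13, adjusted p 0.0521). The dish call of Uqcrq ended without probe sets of shared sequence (-0.09, adjusted p 0.510) or with the mean of its probe sets (0.138). It also ended with centring on the median or without some single arrays (adjusted p up to 0.105). The vessel call of Uqcrh ended with the mean of its probe sets (adjusted p 0.0749), with centring on the median, or without most single arrays (up to 0.111). Cyc1, the cytochrome c1 subunit whose symbol lies outside the rule, fell by 0.59 (SE 0.08) in the dish and 0.45 (SE 0.08) in the vessel.

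Complex IV, cytochrome c oxidase, takes the electrons to oxygen and had the smallest median difference of the 5 complexes. Of the 11 expressed in most tissues, 7 fell in each vessel, by 0.34 (Cox5b, SE 0.09) to 0.76 (Cox6c, SE 0.17) in the dish. Without probe sets of shared sequence Cox5b was called in neither, at -0.04 in the dish (adjusted p 0.836) and -0.04 in the vessel (adjusted p 0.847). Cox4i1, the common form of the largest nuclear subunit, read -0.12, 0.00 and 0.01 on the fresh arrays, -0.11, -0.12 and -0.12 in the dish at 24 h and -0.13, -0.10 and -0.01 in the vessel. These values overlapped, and its difference was -0.08 (SE 0.08, adjusted p 0.413) in the dish and -0.04 (SE 0.08, adjusted p 0.702) in the vessel. Cox6a1 was likewise not called, at -0.07 (SE 0.08) and -0.13 (SE 0.08). Cox7a2l rose by 0.44 (SE 0.13, adjusted p 0.0130) and 0.43 (SE 0.13, adjusted p 0.0162), with all 3 of its probe sets higher. Without fresh replicate 2 both calls ended (adjusted p 0.0558 and 0.0677), and with arrays centred on reference genes its differences were -0.78 and -0.32.

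The tissue-specific isoforms of complex IV moved on their own. Ndufa4l2, a paralog of the subunit Ndufa4 that is known to be induced in hypoxia, had values of -0.01, 0.26 and 0.00 on the fresh arrays, 9.64, 9.51 and 9.29 in the dish at 24 h, and 6.26, 4.63 and 5.16 in the vessel. The 3 groups did not overlap. It rose by 9.40 (SE 0.51, adjusted p 1.67e-08) in the dish and by 5.26 (SE 0.51, adjusted p 3.26e-06) in the vessel, and whether its fresh signal was above background cannot be read from changes. Ndufa4 itself fell by 0.44 (SE 0.09) and 0.42 (SE 0.09). Cox6a2, the heart and muscle form, rose in the dish by 0.84 (SE 0.16, adjusted p 0.000723), with arrays at 1.14, 0.34 and 0.86, and with centring on reference genes its difference was -0.37. Cox7a1, the other muscle form, was at -0.33 (SE 0.14, adjusted p 0.0663) in the dish and fell by 0.90 (SE 0.14, adjusted p 0.000175) in the vessel, beside falls of its common counterpart Cox7a2 by 0.43 (SE 0.08) and 0.35 (SE 0.08). Cox6b2 and Cox8b were called in neither vessel. The muscle markers Ckm and Tnnt3 were not called at 24 h in either vessel.

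**Figure D4:**
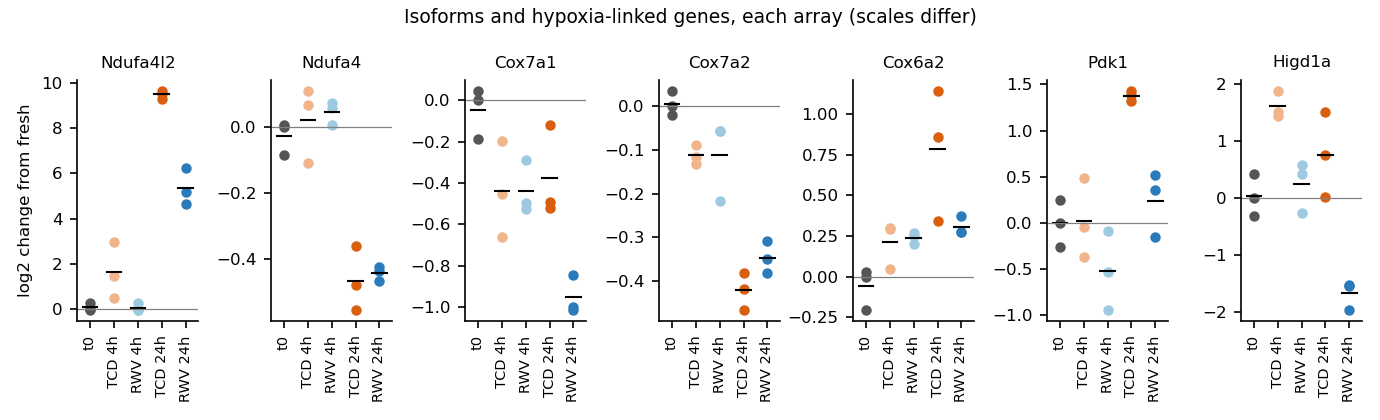
Log2 change from fresh cells on each array (points) with group means (bars) for Ndufa4l2 and Ndufa4, for 3 Cox isoforms, and for Pdk1 and Higd1a, by group. Ndufa4l2 is above 9 on all dish arrays at 24 h and between 4.63 and 6.26 on the vessel arrays, and the y scales differ between panels.

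In ATP synthase the transcripts of the F1 head, the part that makes the ATP, fell by unequal amounts. All 5 of its genes were lower in both vessels: Atp5b, the catalytic beta subunit, fell by 0.43 (SE 0.08) in the dish and 0.38 (SE 0.08) in the vessel, and Atp5c1, the gamma subunit of the rotor, by 0.67 (SE 0.09) and 0.48 (SE 0.09). Atp5a1, the alpha subunit, fell by 1.30 (SE 0.37) and 1.12 (SE 0.37) on a probe set with a wide spread, 1.46 on replicate 2 of the dish at 4 h against -0.21 and -0.22 on the others. Its vessel call ended without fresh replicate 3 (adjusted p 0.103) or RWV replicate 3 at 24 h (adjusted p 0.0761), while its probe set 1449710_s_at fell by 1.37 (SE 0.08) and 0.99 (SE 0.08). Of the 12 genes of the membrane part and stalks 10 fell in each vessel. Atp5o, of the peripheral stalk, fell by 1.10 (SE 0.18) and 0.88 (SE 0.18). Of the 3 genes that encode the same c subunit of the ring, Atp5g1 fell by 0.88 (SE 0.11) and 0.64 (SE 0.11), Atp5g3 by 0.41 (SE 0.07) and 0.35 (SE 0.07), and Atp5g2 was not called, at 0.12 (SE 0.15) and 0.15 (SE 0.15).

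After 4 h fewer of the genes had changed than after 24 h. In the dish 11 of 86 were lower and 1 higher than in fresh cells (16.3% and 9.78% of all genes tested, 26.1% together), with a median of -0.15, and in the vessel 22 were lower and 1 higher (14.7% and 15.5%, 30.1% together), with a median of -0.20. Arrays did not overlap for 32 genes in the dish and 58 in the vessel, where 39.2% and 51.1% of all genes did not. The dish share is near that of all genes. The vessel count dropped to 11 without RWV replicate 3 at 4 h and to 13 without fresh replicate 2 or 3, and the dish count of 12 fell to 5 without fresh replicate 2 and to 6 without fresh replicate 3 or TCD replicate 1 at 4 h. Among the genes lower at 4 h in both were Sdhd, by 0.43 (SE 0.11) and 0.41 (SE 0.11), Ndufv2, by 0.41 (SE 0.10) and 0.54 (SE 0.10), and Atp5o, by 0.59 (SE 0.18) and 0.88 (SE 0.18). None of the 12 dish calls at 4 h held in every alternative. With only the groups compared Sdhd, Ndufv2 and Atp5o were not called in the dish (adjusted p 0.0669, 0.0582 and 0.110), Ndufv2 not without probe sets of shared sequence either (-0.19, adjusted p 0.109), and Atp5o not with centring on the median or without fresh replicate 2 or 3 or TCD replicate 1 or 3 at 4 h (0.0511 to 0.0991). The vessel difference of Atp5o was the same at 4 h and 24 h to 2 decimals. Ndufa4l2 read 2.99, 0.52 and 1.46 in the dish at 4 h and 0.27, -0.01 and -0.02 in the vessel, and its dish difference of 1.57 (SE 0.51, adjusted p 0.0395) was not called without TCD replicate 1 at 4 h (0.91, adjusted p 0.124), without any 1 of the fresh arrays (adjusted p 0.0696 to 0.0996), or without TCD replicate 3 or any RWV array at 4 h, any TCD array or RWV replicate 3 at 24 h (0.0523 to 0.0618), nor with no background filter (0.0590) or only the groups compared (0.185). Between 4 h and 24 h, 63 genes fell and 5 rose in the dish (19.7% and 36.9% of all genes, 56.6% together), with a median of -0.47, and 46 fell and 4 rose in the vessel (15.5% and 27.0%, 42.6% together), with a median of -0.31. Over that time arrays did not overlap for 75 genes in the dish and 63 in the vessel, beside 74.2% and 56.2% of all genes.

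The 2 culture systems were then compared directly at 24 h. Of the 86 genes 12 were higher in the rotating vessel and 3 lower (8.54% and 6.99% of all genes tested, 15.5% together), with a median difference of 0.09 against -0.00 for all genes. Called in either direction were 17.4% of the members, near the share of all genes. For 64 of the 86 the vessel mean was above the dish mean. The 39 genes whose arrays did not overlap, 31 of them higher in the vessel, are 45.3% of the members, beside 39.8% of all genes. Complex I, with 41 of the 86 genes, held 9 of the 12 higher genes, with a median of 0.16, and complexes II, IV and V 1 each. Complex III had 0 genes called by limma (2 at an unadjusted p below 0.05), with a median of 0.09. The SE over the 86 members had a median of 0.10, and the smallest difference called was 0.37 in size (Ndufv3, lower in the vessel), so smaller ones were not resolved with 3 arrays a group.

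**Figure D5:**
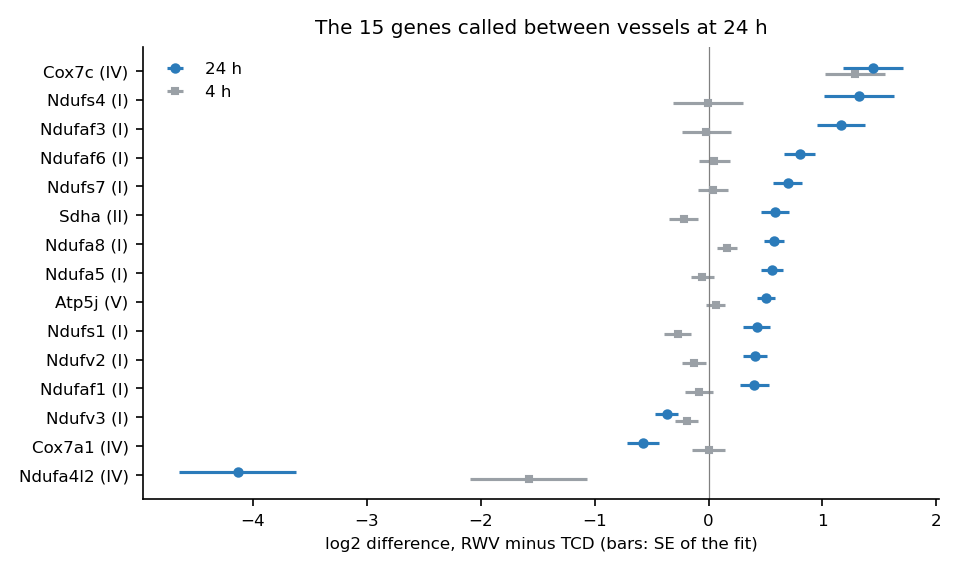
Log2 difference between the rotating vessel and the dish for the 15 genes called at 24 h, with the complex in brackets, at 24 h (blue circles) and at 4 h (grey squares), bars being the SE of the fit. At 4 h only Cox7c of these was called.

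Ndufs7, a core subunit that carries the last iron-sulphur cluster before coenzyme Q, read -0.95, -1.15 and -0.99 in the dish and -0.46, -0.19 and -0.36 in the vessel. Every vessel array was above every dish array. It was higher in the vessel by 0.69 (SE 0.13, adjusted p 0.00292), and its other probe set gave 0.80 (SE 0.15). Ndufa5 read -0.78, -0.90 and -0.80 in the dish and -0.32, -0.13 and -0.36 in the vessel, a difference of 0.56 (SE 0.10, adjusted p 0.00209), and Ndufa8 read -0.57, -0.63 and -0.73 against -0.12, 0.03 and -0.12, a difference of 0.57 (SE 0.09, adjusted p 0.000975). These are accessory subunits. Ndufa8 in the vessel was near its fresh level, at -0.06 (SE 0.09). The assembly factors Ndufaf3 and Ndufaf6 were higher in the vessel by 1.16 (SE 0.21, adjusted p 0.00288) and 0.80 (SE 0.14, adjusted p 0.00188).

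Atp5j, which encodes coupling factor 6 of the peripheral stalk and whose promoter is printed above, read -0.94, -1.06 and -0.88 in the dish and -0.53, -0.42 and -0.41 in the vessel. The groups did not overlap, and the difference was 0.51 (SE 0.08, adjusted p 0.000981). It was the one gene of complex V called between vessels. In the other direction Ndufa4l2 was lower in the vessel by 4.13 on the log2 scale (SE 0.51, adjusted p 0.000202), with the values given above. These 7 genes, Ndufs7, Ndufa5, Ndufa8, Ndufaf3, Ndufaf6, Atp5j and Ndufa4l2, were called with the same sign under each of the 25 alternative settings that gave them a value.

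The other 8 calls between vessels depended on a setting or on single arrays. Sdha was higher in the vessel by 0.58 (SE 0.12, adjusted p 0.00722) and lost its call only when the fit held these 2 groups alone (adjusted p 0.0539). Ndufs1, higher by 0.42 (SE 0.12, adjusted p 0.0293), lost it without TCD replicate 2 or 3 or RWV replicate 2 or 3 at 24 h or with these 2 groups alone (adjusted p 0.0657 to 0.129), and Ndufv2, higher by 0.41 (SE 0.10, adjusted p 0.0197), without TCD replicate 2 or 3 or RWV replicate 1 or 2 (0.0545 to 0.081). Ndufs4, at 1.32 (SE 0.30, adjusted p 0.0109), lost it without RWV replicate 2 or 3 (0.0536 and 0.0519) or with these 2 groups alone (0.0594), and its other probe sets gave -0.08 to 0.30. Ndufaf1, at 0.40 (SE 0.12, adjusted p 0.0472), lost it without fresh replicate 1, TCD replicate 1 at 4 h, any RWV array at 4 h or any array at 24 h (0.0526 to 0.191). Cox7a1 was lower in the vessel by 0.58 on the log2 scale (SE 0.14, adjusted p 0.0168), a call that ended without replicate 2 of either group at 24 h (0.0754 and 0.0633) and with centring on reference genes (-0.11, adjusted p 0.546). Ndufv3 was lower by 0.37 on the log2 scale (SE 0.10, adjusted p 0.0295), which ended without any 1 of the arrays compared (0.0531 to 0.103) and turned to 0.10 with centring on reference genes.

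Cox7c, a small common subunit of complex IV, was the one gene called between vessels at both times. On the probe set that stood for it the fresh arrays read 0.00, 0.01 and -0.12, the dish -0.04, -0.08 and -0.03 at 4 h and -0.16, -0.16 and -0.09 at 24 h, and the vessel 0.78, 1.07 and 1.87 at 4 h and 1.33, 0.78 and 1.81 at 24 h. All 6 vessel arrays were above all others. The difference between vessels was 1.29 (SE 0.26, adjusted p 0.0140) at 4 h and 1.44 (SE 0.26, adjusted p 0.00273) at 24 h. That probe set, 1459885_s_at, shares sequence with other transcripts by the platform's naming. The other, 1459884_at, gave -0.24 (adjusted p 0.619) at 4 h and 0.64 (adjusted p 0.0881) at 24 h, so the vessel difference of Cox7c rests on 1 probe set.

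At 4 h Cox7c was the one member called between vessels, higher in the vessel, where 5.72% of all genes were higher and 0.691% lower (6.41% together). The median difference over the 86 genes was -0.05, and 15 genes had arrays that did not overlap, beside 32.7% of all genes. With fresh replicate 3, TCD replicate 1 or TCD replicate 2 at 4 h left out, 2 genes were called. The difference between vessels changed from 4 h to 24 h by the interaction term for 9 genes, in 8 towards the vessel and in 1 (Ndufa4l2) towards the dish, where 5.01% of all genes were called higher and 7.85% lower (12.9% together). Without RWV replicate 2 at 24 h, the array with the highest values of Ndufs1, Ndufs7 and Sdha and with the lowest Kupffer marker median of its group, the number of genes called between vessels at 24 h fell from 15 to 9. The part of the Kupffer markers in this was not tested.

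How the arrays are set on 1 scale matters for the comparison of vessels. Of the 9 reference genes 7 rose and 1 (B2m) fell at 24 h in each vessel, with a median of 1.11 in the dish and 0.77 in the vessel, so that centring each array on them moved the median of all genes tested to -1.20 (dish against fresh), -0.71 (vessel against fresh) and 0.46 (vessel against dish). All genes then split into 5687 higher and 417 lower between vessels, in place of 1038 and 850, and the members into 69 higher and 1 lower. The member median was then 0.55. The medians of all 5 complexes against fresh cells at 24 h were below 0 under both scalings. Because centring on reference genes lowers genes in general against fresh cells, it could not have turned these falls and is no check of them.

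The genes around the chain gave a mixed picture. Their counts stand beside 33.6% higher and 23.8% lower over all genes in the dish, 31.5% and 19.6% in the vessel, and 8.54% and 6.99% between vessels. Of 38 further assembly factors, which insert haem, copper and iron-sulphur clusters or join subunits, 20 fell and 6 rose in the dish, with a median of -0.41, and 15 fell and 5 rose in the vessel, with a median of -0.23. Foxred1, which acts on complex I, fell by 1.86 (SE 0.16) and 1.51 (SE 0.16), and Sdhaf1, which acts on Sdhb, by 1.80 (SE 0.26) and 1.37 (SE 0.26). Between vessels 10 of the 38 were higher and 1 lower in the vessel, with Bcs1l, which inserts the Rieske protein into complex III, higher by 0.85 (SE 0.15, adjusted p 0.0019). Of 72 mitochondrial ribosomal protein genes 32 fell and 17 rose in the dish (median -0.17), and 17 fell and 16 rose in the vessel (median -0.01), so the respiratory genes were lower than these by their medians. Of 17 citric acid cycle genes 13 fell in the dish (median -0.89) and 11 in the vessel (median -0.69). Idh2, the NADP-linked isocitrate dehydrogenase, fell by 2.44 (SE 0.18) and 1.90 (SE 0.18), and Cs, citrate synthase, rose by 0.94 (SE 0.11) and 1.52 (SE 0.11), though between vessels the mean of its probe sets gave -0.0037 in place of 0.58. Of cytochrome c, Cycs fell by 0.56 (SE 0.17) in the dish and was at -0.43 (SE 0.17, adjusted p 0.056) in the vessel. ND5, the 1 mitochondrially encoded subunit tested, fell by 0.22 (SE 0.09) and 0.26 (SE 0.09).

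Regulators of mitochondrial genes went both ways, with 8 of 16 higher and 7 lower in the dish and 7 and 5 in the vessel. Ppargc1a, the coactivator that drives mitochondrial biogenesis, read -3.95, -3.84 and -3.86 in the dish at 24 h and -3.68, -3.18 and -3.87 in the vessel, against 0.00, -1.05 and 1.38 in fresh cells. All cultured values at 24 h were below all fresh ones. Its difference was -4.00 (SE 0.58) in the dish and -3.68 (SE 0.58) in the vessel, and that of its relative Ppargc1b -4.04 (SE 0.55) and -1.83 (SE 0.55), with the vessel 2.21 higher (SE 0.55, adjusted p 0.017). Nrf1, whose site is described above, rose by 2.21 (SE 0.26) and 1.74 (SE 0.26), and Gabpb1, a subunit of an ETS factor, by 1.78 (SE 0.19) and 0.80 (SE 0.19). Tfam, which packages and transcribes mitochondrial DNA, fell by 0.94 (SE 0.18) and 1.48 (SE 0.18).

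A list of genes known from the hypoxic switch away from respiration, with inhibitors, had 7 of 10 higher and 2 lower in the dish (median 1.14) and 4 and 3 in the vessel (median 0.25). Between vessels 5 were lower in the vessel at 24 h, where 6.99% of all genes were. Pdk1, a kinase that shuts off pyruvate dehydrogenase, read 1.43, 1.39 and 1.32 in the dish and 0.52, -0.15 and 0.36 in the vessel. The groups did not overlap, and Pdk1 was lower in the vessel by 1.14 on the log2 scale (SE 0.26, adjusted p 0.0097). Higd1a, which binds complex IV, was lower there by 2.44 on the log2 scale (SE 0.34, adjusted p 0.00046), and Pdk3 had a difference of -3.51 (SE 0.32). Against fresh cells Higd1a in the vessel at 24 h was itself lower, at -1.71 (SE 0.34, adjusted p 0.0011). At 4 h it was already lower in the vessel than in the dish, at -1.37 (SE 0.34, adjusted p 0.035). Atpif1, the inhibitor of ATP synthase, rose in both, by 0.66 (SE 0.20) and 1.06 (SE 0.20). Ndufa4l2 was thus not alone in being lower in the vessel, and no test of a link between these genes was made.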

How the data were processed

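Biotin-labelled RNA of primary mouse hepatocytes had been hybridised to 15 arrays. The deposited log2 values were made by the authors with GCRMA (no version named), per the submitters' processing notes. Each of the 45101 probe sets had a fresh median of 0 (tolerance 1e-06), so it had been subtracted. Of the probe sets 34945 carried 1 gene symbol, 932 several and 9160 none in the platform annotation, and 64 were controls. Symbols were updated through Entrez numbers (34741 matched).

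For each gene the probe set with the largest SD over the 15 arrays was taken, and it was dropped as background if its SD was under 0.5 and its correlation with the per-array median of the 20% of probe sets that varied least was over 0.8. limma 3.58.1 (R 4.3.3, data.table version 1.17.8) was fitted to the 12157 remaining genes, all 5 groups in 1 fit with 10 residual degrees of freedom and no block. Calls were made at 0.05 after Benjamini-Hochberg adjustment over those genes, comparison by comparison. The script was tested on simulated data. Where the labels do not say that replicate numbers mark a shared isolation, p-values measure the spread between these samples. The number of arrays limits the precision, and array data give no read depth. Figures were drawn with matplotlib 3.10.9 in Python 3.11.15.

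The members, the gene lists, the markers and the tests were chosen with earlier results of these data known. Named genes were up to 10 called members each way with the largest change and no overlap of groups, up to 4 each way per complex, all of complex II, the isoform pairs, and up to 4 called genes of each related list with Ppargc1a, Nrf1, Tfam, Atpif1, Cycs and Cyc1. Others (Gabpb1, Bcs1l, Uqcrc1, Ndufs3, Ndufa1, Ndufb8, Atp5b, Atp5c1, Ndufaf5 and the marker genes) were chosen after their values were seen, as were the promoters printed. For Atp5j a promoter without a match would not have been printed. Alternatives changed the background filter, the choice of probe set, the samples fitted, the block, the centring, array weights and eBayes, and left out each array. Testing every probe set was added after seeing the data.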

Additional observations from a re-analysis of the deposited data

Results flagged for a closer look

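For 9 members the difference between the rotating vessel and the dish was itself different at 24 h and at 4 h, by limma's interaction term with Benjamini-Hochberg adjustment over all genes tested (12.9% of which were called). In 8 of them the vessel gained on the dish from 4 h to 24 h. At 4 h no member was called lower in the vessel, so the negative 4 h differences given next were not calls. Sdha had an interaction of 0.80 (adjusted p 0.0120), from a difference of -0.22 at 4 h to 0.58 at 24 h, and Ndufs1 one of 0.69 (adjusted p 0.0174), from -0.27 to 0.42. Ndufa5 had 0.61 (adjusted p 0.0135). Ndufaf3 had 1.18 (adjusted p 0.0246), Ndufaf6 0.75 (adjusted p 0.0266), Ndufs7 0.65 (adjusted p 0.0343), Ndufv2 0.53 (adjusted p 0.0334) and Atp5j 0.45 (adjusted p 0.0223). Ndufa4l2 went the other way, at -2.55 (adjusted p 0.0376).

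Ndufs1 and Ndufa5 were called in each alternative that gave them a value, and Sdha in all but the mean of its probe sets (0.27, adjusted p 0.0539). Ndufaf3 was not called without RWV replicate 3 at 4 h (adjusted p 0.0609) or RWV replicate 2 at 24 h (0.0614), and Atp5j without those arrays, TCD replicate 2 or RWV replicate 3 at 24 h (0.0504 to 0.0546). Ndufs7 was not called without TCD replicates 2 or 3 or RWV replicates 1 or 3 at 4 h, or TCD or RWV replicates 2 or 3 at 24 h (0.0553 to 0.0856). Ndufv2 was not called without TCD replicate 1 or RWV replicates 2 or 3 at 4 h, or TCD replicates 2 or 3 or RWV replicates 1 or 2 at 24 h, or with centring on the median of genes tested (0.0515 to 0.0792). Ndufaf6 was not called without TCD replicates 1 or 3 or RWV replicates 2 or 3 at 4 h, or TCD replicates 2 or 3 or RWV replicate 2 at 24 h (0.0504 to 0.0686). Ndufa4l2 was not called without any 1 of 11 arrays (0.0511 to 0.0917) or with only the groups compared (0.0621), and array weights moved it to -1.60 (adjusted p 0.0704).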

How the results depend on the processing

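Of the calls against fresh cells at 24 h, 61 of 71 in the dish and 55 of 70 in the vessel held in every alternative that gave the gene a value, and the counts stayed within 67 to 72 and 63 to 72 when any array was left out. The median over the members kept its sign under every alternative in all 9 comparisons. Those of complexes III and V between vessels at 4 h, and of complex IV between vessels, in the interaction and at 4 h, changed sign in some.

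Counts moved more elsewhere. For the vessels at 4 h (1 called) they were 5 with no background filter, 0 with the mean of probe sets, without probe sets of shared sequence or with only the groups compared, and 2 with array weights, with every probe set tested or without fresh replicate 3, TCD replicate 1 or TCD replicate 2 at 4 h (1 to 2 over left-out arrays). For the vessels at 24 h (15) they were 70 with centring on reference genes, 23 with array weights and 9 to 16 without single arrays. For the interaction (9) they were 14 with no filter, 68 with reference genes, 15 with array weights and 3 to 10 without single arrays (3 without RWV replicate 3 at 4 h or RWV replicate 2 at 24 h, 5 without TCD replicate 2 or 3 at 24 h). For the dish at 4 h (12) they were 5 without probe sets of shared sequence, 0 with only the groups compared, 7 with centring on the median, 59 with reference genes, 19 with array weights and 5 to 13 without single arrays. For the vessel at 4 h (23) they were 14 without probe sets of shared sequence, 14 with centring on the median, 74 with reference genes and 11 to 29 without single arrays. From 4 h to 24 h they were 60 to 69 in the dish and 40 to 54 in the vessel.

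Centring on reference genes reversed Cox7a2l (-0.013 from 4 h to 24 h in the vessel, -0.32 in the vessel and -0.78 in the dish against fresh, -0.56 from 4 h to 24 h in the dish), Ndufv3 (0.10), Ndufaf5 (-0.14 in the vessel, -0.42 from 4 h to 24 h in the dish), Cox6a2 (-0.37 in both dish comparisons), Ndufb1 (-0.60), Vdac2 (0.079 between vessels, -0.13 and -0.21 against fresh) and Vdac3 (-0.57); that scale lowers the median of all genes against fresh cells at 24 h and raises it between vessels. Without probe sets of shared sequence Cox7c (-0.24 and -0.11 at 4 h) and Uqcr10 (0.036) reversed, and the mean of probe sets reversed Cs between vessels (-0.0037). The causes were not tested.

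With the replicate number as a block, 15 genes were called between vessels at 24 h, all of those called without it, 1 at 4 h, 71 in the dish and 69 in the vessel against fresh at 24 h. Each of the 15 arrays correlated best with one sharing its number, a hint from the data only, and in 5 of 10 pairs of groups every same-numbered correlation was above 0.1. Against fresh cells the block ended the calls of Uqcrh (vessel at 24 h, adjusted p 0.0650), Atp5g1 (dish at 4 h, 0.0537) and Atp5k (vessel at 4 h, 0.0637), and no other call without it was lost. Signal over background limits Cox4i2, Cox7b2, Cox8c and the probe set naming only Ndufb4.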
